A study of Rattus norvegicus with 21 samples.

Results

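The genes described here are 44 genes of the cell division cycle, read in livers of male rats given piperonyl butoxide (PBO) or dammar resin (DAM). The 44 genes were listed by symbol, and a gene counted as measured where a probe set carried exactly that symbol in the platform annotation used here. That gave 41 measured genes of 44, against 14217 gene symbols on 31042 probe sets in all, with array controls left out. Tpx2 and Ndc80 matched no probe set by symbol, and Rrm2 matched only probe sets shared with Rrm2l1, so these 3 genes have no value. Each gene is read by 1 probe set, the one with the highest mean over the 21 arrays. In the first study Sprague-Dawley rats received 0, 500, 1000 or 1500 mg/kg PBO by mouth for 7 days, the 0 mg/kg group receiving the vehicle, 0.5% methyl cellulose. In the second study Fischer344 rats ate a basal diet or a diet with 2% or 5% DAM for 28 days, which the labels equate with 0, 800 and 2000 mg/kg. PBO is a synergist of pyrethrin insecticides, and DAM is a tree resin. Each of the 7 groups held 3 arrays, labelled as biological replicates; no source used here states their age. Strain, route, duration and the way the livers were preserved (RNAlater for PBO, liquid nitrogen for DAM) all differed between the studies, so every dose is compared with the control of its own study.

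Cyclins are proteins that bind and switch on cyclin-dependent kinases, and different pairs act in turn through the cycle. Cyclin D and cyclin E with CDK4 and CDK2 carry a cell out of G1, the MCM helicase and PCNA then serve DNA replication, and cyclin A and cyclin B with CDK1 start mitosis, which the aurora and polo kinases, the checkpoint proteins and the spindle motors carry through. Hepatocytes of an adult rat are mostly quiescent, and transcripts of mitosis in whole liver come from the small share of cells in cycle, whatever their type. In whole tissue, fewer cells of a type and less RNA per cell cannot be told apart.

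The values were linear probe set signals, scaled so that the trimmed mean was 500.2 to 500.3 on all 21 arrays. Differences are of log2(signal + 16), so the changes of dim probe sets are understated, and they carry limma's standard error (SE) and a p-value adjusted over the 18625 probe sets tested in each fit. A member is said to rise or fall only where that adjusted p was under 0.05. Of the 41 genes, 37 passed the filter on dim probe sets in the PBO study (not Bub1b, Ttk, Melk and Pbk) and 38 in the DAM study (not Plk1, Bub1b and Ttk). RNA quality, read as the ratio of 3′ to 5′ control signal, differed between the studies, with Gapdh at 1.07 to 1.19 on the PBO arrays and 1.52 to 2.01 on the DAM arrays. Within the PBO study the actin ratio ranged over 2.85 to 3.16 in the controls and 2.61 to 2.83, 2.38 to 2.50 and 2.38 to 2.78 at 500, 1000 and 1500 mg/kg, lower at all 3 doses. On the DAM arrays it was higher, at 7.08 to 9.81 in the controls, 5.56 to 8.02 at 800 mg/kg and 7.26 to 9.71 at 2000 mg/kg. The part of RNA quality in the results was not tested. Hepatocyte markers were bright in all groups, with summed signals of 187693 to 267087 in the PBO study and 158436 to 209745 in the DAM study. Single markers moved: of 7, 1 fell at PBO 1000 and 3 at PBO 1500, where 3.12% and 17.3% of all probe sets were called. At PBO 1500 5 of the 7 were below 0, with a median of -0.30. With DAM 1 rose at 800 mg/kg, and 1 rose and 1 fell at 2000 mg/kg (3.79% and 12.3% of all called).

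The 250 bases upstream of the start site were taken from RefSeq's rat promoters (build GRCr8), where 34 of the 41 measured genes had an entry. They were searched on both strands for the CCAAT box (CCAAT), the cell cycle homology region (TTTGAA) and 4 spellings of an E2F site (TTTCCCGC, TTTGGCGC, TTTCGCGC and TTTGCCGC). These letters mark elements known from promoters of cell cycle genes, the homology region mainly in genes of mitosis and E2F sites mainly in genes of replication. Matches are in capitals in the 6 promoters below, which belong to a CDK1-bound phosphatase, CDK1 itself, a mitotic topoisomerase and 3 genes of DNA synthesis that the results turn on.
Cdkn3: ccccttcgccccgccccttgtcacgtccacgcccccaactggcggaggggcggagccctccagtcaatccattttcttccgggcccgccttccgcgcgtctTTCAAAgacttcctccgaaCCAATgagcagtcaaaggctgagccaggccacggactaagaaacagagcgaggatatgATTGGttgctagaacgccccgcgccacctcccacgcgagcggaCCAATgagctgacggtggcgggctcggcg
Cdk1: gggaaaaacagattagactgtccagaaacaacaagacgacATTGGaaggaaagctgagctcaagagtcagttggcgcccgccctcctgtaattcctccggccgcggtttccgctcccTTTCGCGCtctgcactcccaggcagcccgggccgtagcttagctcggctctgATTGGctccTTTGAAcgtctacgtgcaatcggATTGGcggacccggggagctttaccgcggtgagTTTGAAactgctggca
Top2a: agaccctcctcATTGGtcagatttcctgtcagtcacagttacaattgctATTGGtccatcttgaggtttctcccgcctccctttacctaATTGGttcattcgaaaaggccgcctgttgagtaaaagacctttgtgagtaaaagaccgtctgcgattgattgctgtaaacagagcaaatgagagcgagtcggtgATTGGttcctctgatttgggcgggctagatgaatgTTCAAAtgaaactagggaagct
Mcm2: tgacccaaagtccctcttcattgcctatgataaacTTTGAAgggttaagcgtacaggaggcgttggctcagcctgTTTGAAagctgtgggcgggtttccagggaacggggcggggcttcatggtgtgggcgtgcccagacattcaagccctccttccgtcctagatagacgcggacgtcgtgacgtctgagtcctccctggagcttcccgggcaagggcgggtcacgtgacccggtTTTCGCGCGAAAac
Mcm6: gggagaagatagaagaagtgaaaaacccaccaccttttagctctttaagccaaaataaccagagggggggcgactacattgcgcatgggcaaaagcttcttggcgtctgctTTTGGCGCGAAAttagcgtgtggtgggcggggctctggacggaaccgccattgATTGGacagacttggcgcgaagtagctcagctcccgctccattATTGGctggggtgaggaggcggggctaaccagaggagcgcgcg
Tk1: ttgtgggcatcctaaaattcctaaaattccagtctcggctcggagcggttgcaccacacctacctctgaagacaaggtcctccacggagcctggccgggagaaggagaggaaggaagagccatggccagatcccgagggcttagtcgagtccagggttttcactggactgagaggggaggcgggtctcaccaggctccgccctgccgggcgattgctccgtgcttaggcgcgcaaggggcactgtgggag
The stretches lie at chr15:22502136-22502385 (plus strand), chr20:19265043-19265292 (plus strand), chr10:84473094-84473343 (minus strand), chr4:122918095-122918344 (minus strand), chr13:42404353-42404602 (minus strand) and chr10:103544778-103545027 (minus strand), in the order printed. The CCAAT letters occurred in 25 of the 34 promoters (73.5%), against 34.3% of all 27457 promoters of the same length. The homology region occurred in 13 of 34 (38.2%), against 16% of all promoters. An E2F spelling occurred in 7 of 34 (20.6%), against 1.81% of all. Of the 9 replication genes with an entry, 5 held an E2F spelling and 1 (Mcm2) held the homology region. Of the 7 genes of chromosomes and spindle with an entry, all 7 held a CCAAT box and 4 the homology region. Of the 9 mitotic kinases and checkpoint genes with an entry, 5 held a CCAAT box and 3 the homology region. Of the 6 genes of the G1 list with an entry, 4 held a CCAAT box and 3 the homology region (Cdkn3, Cks1b and Cks2). Of the 3 mitotic cyclins and CDK1 with an entry, all 3 held a CCAAT box and 2 the homology region, and 6 of the 9 replication genes held a CCAAT box. Cdk1 alone held all 3 kinds, and in Mcm6 as in Mcm2 the E2F matches overlap on opposite strands. The Tk1 stretch held none of the letters searched. These are counts of letters and show no binding.

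Across the PBO doses the cycle genes did not move in 1 direction. At 500 and 1000 mg/kg most transcripts of mitosis were lower than in the control. At 1500 mg/kg most of them overlapped the control values, but unevenly between the animals. Medians against the control mean on replicates 1, 2 and 3 were 0.14, -0.41 and 0.33 for mitotic cyclins and CDK1. For chromosomes and spindle they were 0.44, -0.45 and -0.12, so replicate 2 stayed lower. All 10 measured genes of DNA replication had differences above 0 at that dose. Of the 41 genes, 36 had a difference below 0 at 500 mg/kg and 33 at 1000 mg/kg, against 53.8% and 55.7% of all probe sets. At 1500 mg/kg 24 of the 41 genes were above 0, against 46.0% of all probe sets. The median difference of the tested members was -0.78, -0.79 and 0.13 at 500, 1000 and 1500 mg/kg, beside -0.04, -0.05 and -0.08 over all probe sets tested. All 3 treated groups are set against the same 3 control arrays, so these values share that error. The members also vary together within an animal, so a count of members, here and below, is not a count of independent readings. Few members passed the test: 1 fell at 500 mg/kg (0.478% of all probe sets were called, 0.129% lower), 2 fell at 1000 mg/kg (3.12% called, 1.23% lower) and 3 rose at 1500 mg/kg (17.3% called, 8.08% higher). Among the 37 tested members that last count is close to the share of all probe sets called higher. Of the 2 at 1000 mg/kg, Racgap1 was not called by its other probe set, the brighter one on the PBO arrays alone.

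**Figure D1:**
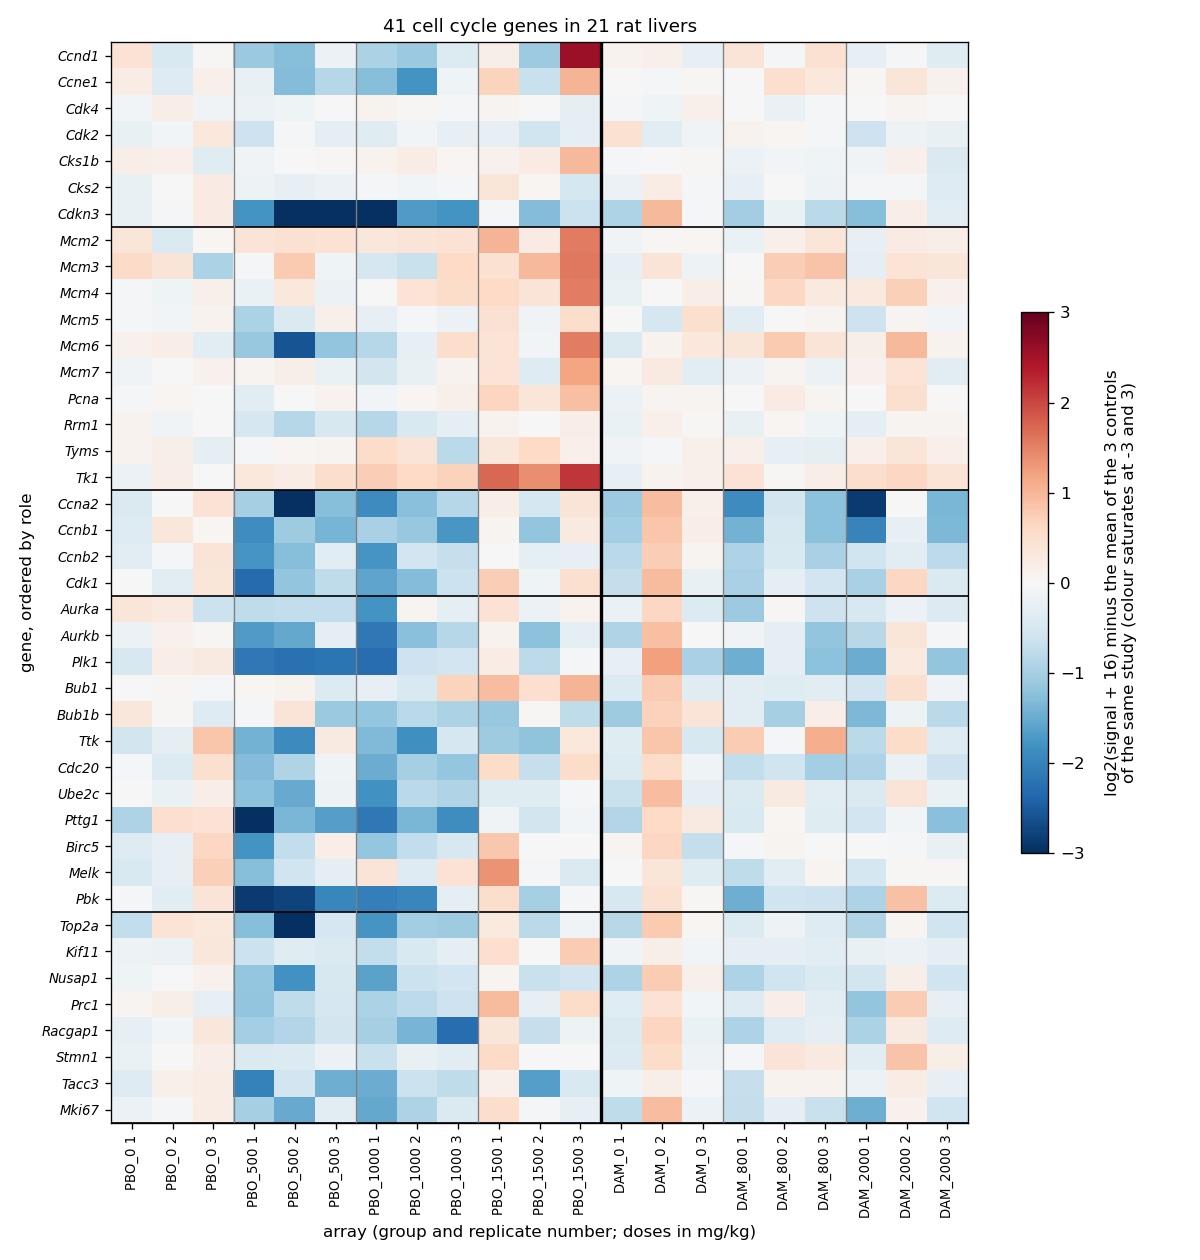
Difference of log2(signal + 16) from the mean of the 3 controls of the same study, for the 41 measured genes (rows, ordered by role) on the 21 arrays (columns, named by group with the dose in mg/kg and by replicate number); blue is lower, red is higher, and the colour saturates at -3 and 3. The lower 3 blocks of genes are mostly blue at PBO 500 and 1000, the replication block is mostly red at PBO 1500, and replicate 2 of DAM 0 and DAM 2000 is redder than the other arrays of its group.

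In the list of 7 G1 cyclins, kinases and adaptors, Cdkn3 was the member that passed the test. Like most mitotic genes it was lower at 500 and 1000 mg/kg, and its place in this list does not mean expression in G1. Cdkn3 encodes a phosphatase that removes the activating phosphate from CDK1 and CDK2. Its signals were 260.1, 298 and 369 in the PBO controls, 77.3, 23.3 and 8.31 at 500 mg/kg, 14.7, 83.6 and 76.6 at 1000 mg/kg and 299.7, 115 and 189.6 at 1500 mg/kg. Every array of the 500 and 1000 mg/kg groups lay below every control, and the 1500 mg/kg arrays overlapped the controls. Cdkn3 fell by 2.85 (SE 0.54, adjusted p = 0.0349) at 500 mg/kg and by 2.29 (SE 0.54, adjusted p = 0.0369) at 1000 mg/kg. Its difference at 1500 mg/kg was -0.66 (SE 0.54, adjusted p = 0.445). These calls depended on single arrays, since the Cdkn3 adjusted p rose to 0.117, 0.137 and 0.151 at 500 mg/kg without control replicate 1, 2 or 3. It was 0.151, 0.119 and 0.0502 without PBO 500 replicate 2, PBO 500 replicate 3 and PBO 1000 replicate 3. At 1000 mg/kg it was 0.0915, 0.112 and 0.137 without control replicate 1, 2 or 3, 0.0549 without PBO 500 replicate 2, and 0.135, 0.0520 and 0.0664 without PBO 1000 replicate 1, 2 or 3. Over these fits at either dose the Cdkn3 difference lay between -2.96 and -1.74.

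Ccnd1 encodes cyclin D1, the G1 cyclin that responds to growth signals. Its signals were 1144, 605 and 864 in the PBO controls, 383, 337 and 739.6 at 500 mg/kg, 426, 382 and 632 at 1000 mg/kg and 955, 388 and 5047 at 1500 mg/kg. The treated groups overlapped the controls, and PBO 1500 replicate 3 stood far above every other PBO array. No Ccnd1 difference from the control passed the test: -0.86 at 500 mg/kg, -0.83 at 1000 mg/kg and 0.55 at 1500 mg/kg, each with SE 0.66. Cdk2, the kinase that cyclin E activates, read 298, 327 and 436 in the controls and 292, 223 and 283 at 1500 mg/kg, a difference of -0.38 (SE 0.20, adjusted p = 0.22) without overlap. Ccne1, which encodes cyclin E1, had differences of -0.79, -1.07 and 0.34 over the 3 doses. Cdk4, the partner of cyclin D, and the adaptors Cks1b and Cks2, which bind cyclin-dependent kinases, had differences between -0.19 and 0.45 at the 3 doses, none past the test.

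The 10 genes of DNA replication and nucleotide supply behaved differently from the genes of mitosis, with median differences of 0.00 at 500 mg/kg, -0.06 at 1000 mg/kg and 0.63 at 1500 mg/kg. At 1500 mg/kg all 10 were above 0, against 46.0% of all probe sets, and 3 rose (Tk1, Pcna and Mcm2), against 8.08% of all probe sets. Tk1 encodes the cytosolic thymidine kinase, which salvages thymidine for DNA synthesis. Its signals were 393, 521 and 442 in the PBO controls, 567, 524 and 651 at 500 mg/kg, 764, 684 and 733 at 1000 mg/kg and 1513, 1206 and 2052 at 1500 mg/kg. No 2 of these 4 groups overlapped, and the group means stood in the order of the doses. Tk1 rose by 1.75 (SE 0.18, adjusted p = 5.15e-05) at 1500 mg/kg, after differences of 0.35 (SE 0.18, adjusted p = 0.57) and 0.68 (SE 0.18, adjusted p = 0.0681) at 500 and 1000 mg/kg. In a fit without the filter, a second Tk1 probe set gave 0.78 (adjusted p = 0.0248) at 1500 mg/kg and -0.14 at 500 mg/kg, and the third, a dim one, gave 0.59 (adjusted p = 0.623) at 1500 mg/kg.

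Pcna encodes the sliding clamp of the replicative polymerases. Its signals were 2294, 2486 and 2334 in the controls, 1895, 2350 and 2572 at 500 mg/kg, 2232, 2468 and 2652 at 1000 mg/kg and 3737, 3038 and 4469 at 1500 mg/kg. All 3 arrays at 1500 mg/kg lay above the other 9 PBO arrays. Pcna rose by 0.64 (SE 0.15, adjusted p = 0.0115) at 1500 mg/kg, with differences of -0.07 and 0.04 at the lower doses. Mcm2 encodes a subunit of the MCM helicase that opens DNA at origins. Its signals were 212, 115 and 169 in the controls, 215, 225 and 221 at 500 mg/kg, 207, 214 and 221 at 1000 mg/kg and 343, 195 and 507 at 1500 mg/kg. PBO 1500 replicate 2 lay within the range of the Mcm2 controls and the other arrays of its group above it. Mcm2 rose by 0.95 (SE 0.29, adjusted p = 0.0393) at 1500 mg/kg. That call rested on the whole set of arrays: leaving out PBO 0 replicate 2 or 3, any array at 500 or 1000 mg/kg, or PBO 1500 replicate 1 or 3 raised the Mcm2 adjusted p to values from 0.0530 to 0.144, with a difference of 0.64 without PBO 1500 replicate 3.

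Mcm6, another helicase subunit, moved differently from Mcm2 at the lowest dose. Its signals were 211, 221 and 149.9 in the controls, 78.0, 18.4 and 75.2 at 500 mg/kg, 98.9, 158 and 283 at 1000 mg/kg and 262, 179 and 584 at 1500 mg/kg. All 3 arrays at 500 mg/kg lay below the controls, and the other doses overlapped them. The Mcm6 differences were -1.64 (SE 0.48, adjusted p = 0.229), -0.19 and 0.62, none past the test. Of the other helicase subunits, Mcm3, Mcm4, Mcm5 and Mcm7 had differences of 1.01, 0.84, 0.30 and 0.40 at 1500 mg/kg, none past the test. Mcm4 read 145, 136 and 169 in the controls and 236, 202 and 461 at 1500 mg/kg, without overlap (adjusted p = 0.061). Rrm1, the large subunit of ribonucleotide reductase, read 330.0, 282 and 309 in the controls, 213, 161 and 215 at 500 mg/kg and 162, 219.8 and 250.0 at 1000 mg/kg, below every control at both doses. Its differences of -0.61 and -0.53 did not pass the test (adjusted p = 0.26 and 0.183). Tyms, which makes thymidylate, differed by 0.03, 0.05 and 0.37 over the doses.

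The 4 genes of mitotic cyclins and their kinase had median differences of -1.43 at 500 mg/kg and -1.23 at 1000 mg/kg, the lowest of the 5 roles at both doses, and -0.08 at 1500 mg/kg. None of the 4 passed the test at any dose. Cdk1, the kinase that drives entry into mitosis, read 286, 225 and 373 in the controls, 45.9, 119 and 162 at 500 mg/kg, 85.8, 108 and 177 at 1000 mg/kg and 491, 262 and 412 at 1500 mg/kg. Both lower doses lay wholly below the Cdk1 controls, and the top dose overlapped them. The Cdk1 differences were -1.42 (95% interval -2.24 to -0.59, adjusted p = 0.172), -1.18 (-2.01 to -0.35, adjusted p = 0.134) and 0.37 (-0.46 to 1.19, adjusted p = 0.564). Ccnb1, cyclin B1, read 209, 359 and 292 in the controls, 65.3, 126 and 96.5 at 500 mg/kg, 135, 118 and 72.7 at 1000 mg/kg and 299, 114 and 342 at 1500 mg/kg. Its 6 arrays at the lower doses lay below the controls, as did PBO 1500 replicate 2. The Ccnb1 differences were -1.44 (SE 0.38, adjusted p = 0.158), -1.28 (SE 0.38, adjusted p = 0.0958) and -0.28 (SE 0.38, adjusted p = 0.671). Ccnb2, cyclin B2, read 239, 292 and 399 in the controls, 77.9, 117 and 241 at 500 mg/kg, 77.1, 198 and 182 at 1000 mg/kg and 304, 246 and 254 at 1500 mg/kg. Of its treated groups, the 1000 mg/kg arrays did not overlap the controls (difference -1.02, adjusted p = 0.199). Ccna2, cyclin A2, which acts in S phase and early mitosis, differed by -1.76 (SE 0.50, adjusted p = 0.207) at 500 mg/kg, -1.33 (SE 0.50, adjusted p = 0.207) at 1000 mg/kg and 0.02 at 1500 mg/kg.

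**Figure D2:**
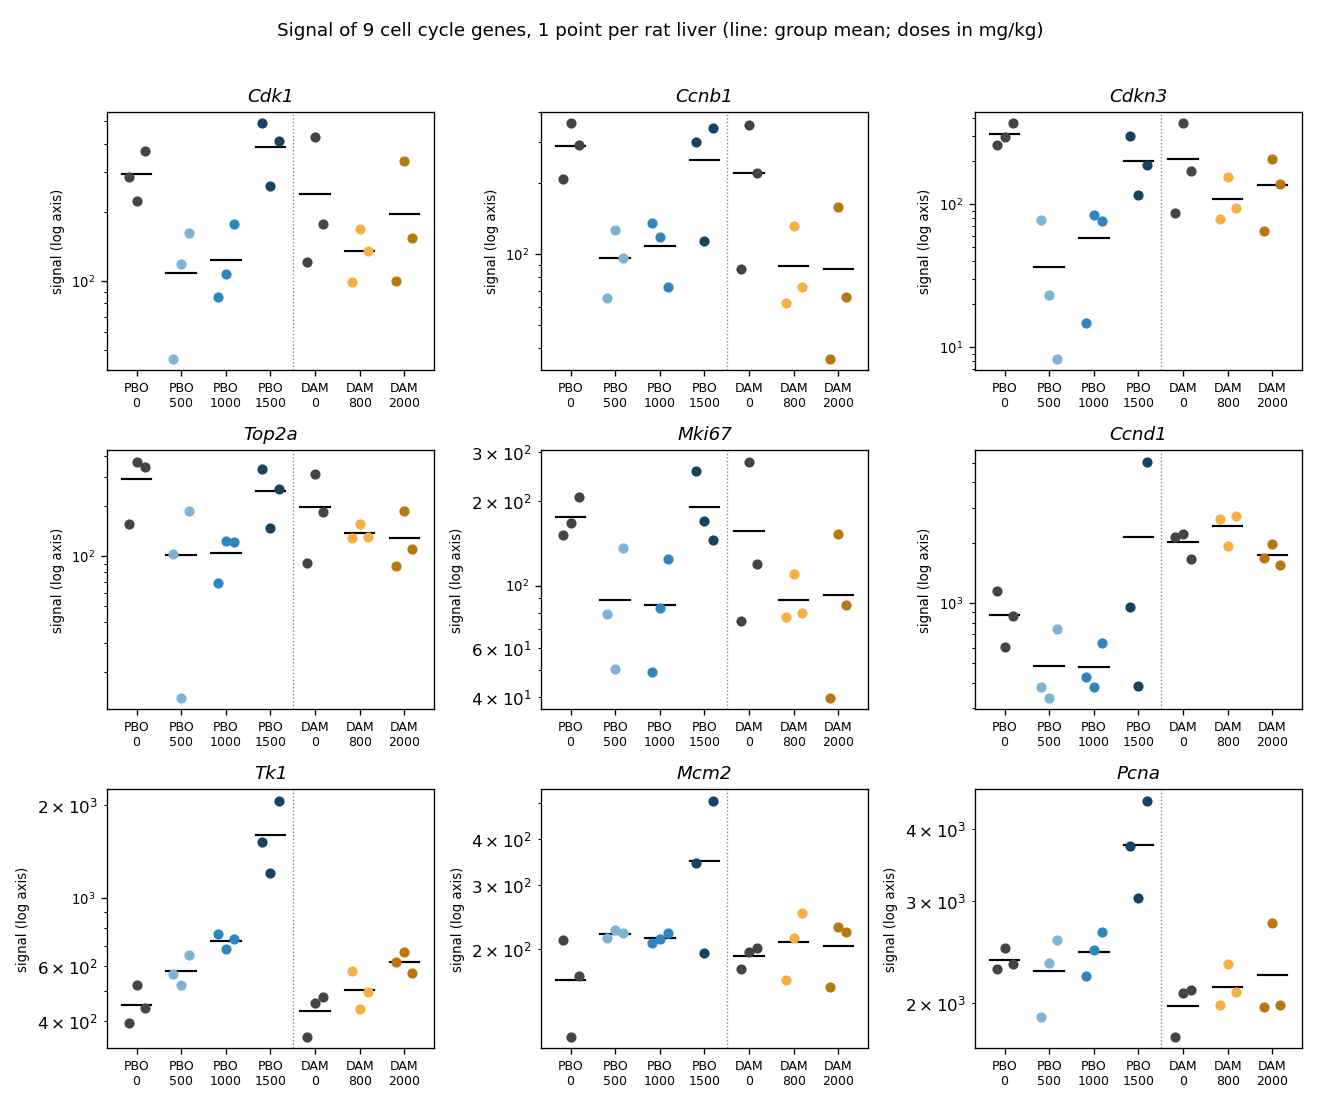
Signals of 9 cell cycle genes on a log axis, 1 point per rat liver, by group (PBO doses to the left of the dotted line, DAM doses to the right, in mg/kg); the bar is the group mean. Cdk1, Ccnb1, Cdkn3, Top2a and Mki67 are lower at PBO 500 and 1000 than at PBO 0. At 1500 mg/kg each of them overlaps its control values, with some arrays still below every control, such as Cdkn3 at 115 and 189.6 and Ccnb1 at 114. Tk1 and Pcna are highest at PBO 1500, and Ccnd1 has 1 PBO 1500 array at 5047.

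The 12 mitotic kinases, checkpoint and anaphase genes had median differences of -0.87, -1.17 and -0.18 over the 3 doses (-0.03 at 1500 mg/kg over the 8 tested), and none passed the test. Plk1 encodes polo-like kinase 1, which acts at centrosomes, kinetochores and the cleavage furrow. Its signals were 123, 207 and 219 in the PBO controls, 28.0, 25.4 and 26.1 at 500 mg/kg, 24.0, 111 and 113 at 1000 mg/kg and 211, 97.1 and 175 at 1500 mg/kg. Both lower doses lay below every Plk1 control, the 500 mg/kg arrays within a narrow range. Its differences were -2.19 (SE 0.44, adjusted p = 0.054), -1.16 (SE 0.44, adjusted p = 0.214) and -0.19. Cdc20, the activator of the anaphase-promoting complex, read 334, 259 and 493 in the controls, 133, 180.0 and 318 at 500 mg/kg, 114, 168 and 147 at 1000 mg/kg and 516, 212 and 516 at 1500 mg/kg. The 1000 mg/kg arrays lay below the Cdc20 controls (difference -1.22, SE 0.37, adjusted p = 0.107). The other Cdc20 probe sets, all dimmer, differed in sign among themselves. In a fit without the filter they gave 0.34, -1.64, -0.66 and 0.55 at 500 mg/kg. At 1000 mg/kg they gave -0.64, -0.82, -0.43 and 0.53. Pttg1, securin, which holds separase inactive until anaphase, had differences of -2.06 (SE 0.46, adjusted p = 0.0848), -1.80 (SE 0.46, adjusted p = 0.0534) and -0.25. Aurkb, the aurora kinase of the chromosomal passenger complex, differed by -1.17, -1.42 and -0.47, and Ube2c, the ubiquitin-conjugating enzyme of the anaphase-promoting complex, by -0.97, -1.17 and -0.26. Bub1, a spindle checkpoint kinase, had another pattern, with differences of -0.08, -0.01 and 0.82 (SE 0.33, adjusted p = 0.111 at 1500 mg/kg), and 146, 106 and 155 at 1500 mg/kg above its controls at 68.6, 71.2 and 67.6. Among the untested members, Pbk, a mitotic kinase, read 129, 101 and 178 in the controls against 4.25, 5.79 and 22.3 at 500 mg/kg, without overlap.

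The 8 genes of chromosomes, spindle and division had median differences of -0.88, -0.96 and -0.04. All 8 lay wholly below the controls at 1000 mg/kg, and 1 of them, Racgap1, fell. Racgap1 encodes a subunit of centralspindlin, which bundles the midzone and positions the cleavage furrow. Its signals were 120.4, 138 and 189 in the controls, 63.9, 72.2 and 94.1 at 500 mg/kg, 65.8, 45.4 and 17.1 at 1000 mg/kg and 194, 84.1 and 130.2 at 1500 mg/kg. Both lower doses lay below every control, and the top dose overlapped them. Racgap1 fell by 1.56 (SE 0.38, adjusted p = 0.0424) at 1000 mg/kg, with a difference of -0.82 (SE 0.38, adjusted p = 0.493) at 500 mg/kg. A second Racgap1 probe set, the brighter of the pair on the PBO arrays alone, gave -0.71 (adjusted p = 0.300) at 1000 mg/kg. The Racgap1 call was lost without control replicate 1, 2 or 3 (adjusted p = 0.0876, 0.116 and 0.165), without PBO 500 replicate 1, 2 or 3 (0.0588, 0.0641 and 0.0561) and without PBO 1000 replicate 2 or 3 (0.0888 and 0.152).

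Top2a, the topoisomerase that untangles sister chromatids, read 157, 367 and 344 in the PBO controls, 103, 14.0 and 186 at 500 mg/kg, 68.7, 123 and 121 at 1000 mg/kg and 336, 148 and 253 at 1500 mg/kg. Control replicate 1 was low and overlapped the 500 mg/kg group, and the 1000 mg/kg arrays lay below all controls. The Top2a differences were -1.68 (SE 0.58, adjusted p = 0.322), -1.29 (SE 0.58, adjusted p = 0.299) and -0.20. Mki67, which encodes the Ki-67 protein used to stain cells in cycle, read 151, 167 and 207 in the controls, 79.2, 50.6 and 136 at 500 mg/kg, 49.0, 83.2 and 124 at 1000 mg/kg and 256, 169.9 and 145 at 1500 mg/kg. Its arrays at both lower doses lay below the controls. The Mki67 differences were -0.94 (SE 0.36, adjusted p = 0.379), -0.97 (SE 0.36, adjusted p = 0.192) and 0.08 (SE 0.36, adjusted p = 0.898). Nusap1, Prc1, Kif11, Stmn1 and Tacc3, which bind or move microtubules, differed by -1.35 to -0.35 at 500 mg/kg, by -0.97 to -0.41 at 1000 mg/kg and by -0.65 to 0.42 at 1500 mg/kg, none past the test.

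Counted over all 41 members, 17 lay wholly below the controls at 500 mg/kg and 21 at 1000 mg/kg, against 9.08% and 12.1% of all probe sets, and 2 and 1 lay wholly above them, against 7.09% and 8.88%. At 1500 mg/kg 1 member lay wholly below and 4 wholly above them, against 13.7% and 11.1% of all probe sets. The 21 members at 1000 mg/kg were 4 of 4 mitotic cyclins with CDK1, 7 of 12 mitotic kinases and checkpoint genes, 8 of 8 genes of chromosomes and spindle, 1 of 10 replication genes and 1 of 7 genes of the G1 list (Cdkn3). At an unadjusted p under 0.05, 17 tested members were lower at 500 mg/kg and 17 at 1000 mg/kg, against 5.41% and 8.25% of all probe sets, and none and 1 were higher, against 4.57% and 7.48%. By the same unadjusted threshold 6 tested members were higher and none lower at 1500 mg/kg, against 13.5% and 17.9%. The counts of calls moved with single arrays. At 500 mg/kg none was called without PBO 0 replicate 2 or 3, PBO 500 replicate 2 or 3 or PBO 1000 replicate 3, and 2, 2 and 3 fell without PBO 1000 replicate 1, PBO 1500 replicate 2 and PBO 1500 replicate 3. At 1000 mg/kg none was called without PBO 0 replicate 2 or 3, PBO 500 replicate 2 or PBO 1000 replicate 2 or 3, and 1 fell without PBO 0 replicate 1 or PBO 1000 replicate 1. Without PBO 1500 replicate 2 the count at 1000 mg/kg was 1 rose and 4 fell, and without PBO 1500 replicate 3 it was 1 rose and 5 fell. At 1500 mg/kg 5 rose without PBO 1500 replicate 2, with Mcm4 at 1.06 (adjusted p = 0.0287) and Mcm7 at 0.80 (adjusted p = 0.0399). That was the highest count at this dose, which ranged from 2 to 5 over the fits that leave out 1 array.

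**Figure D3:**
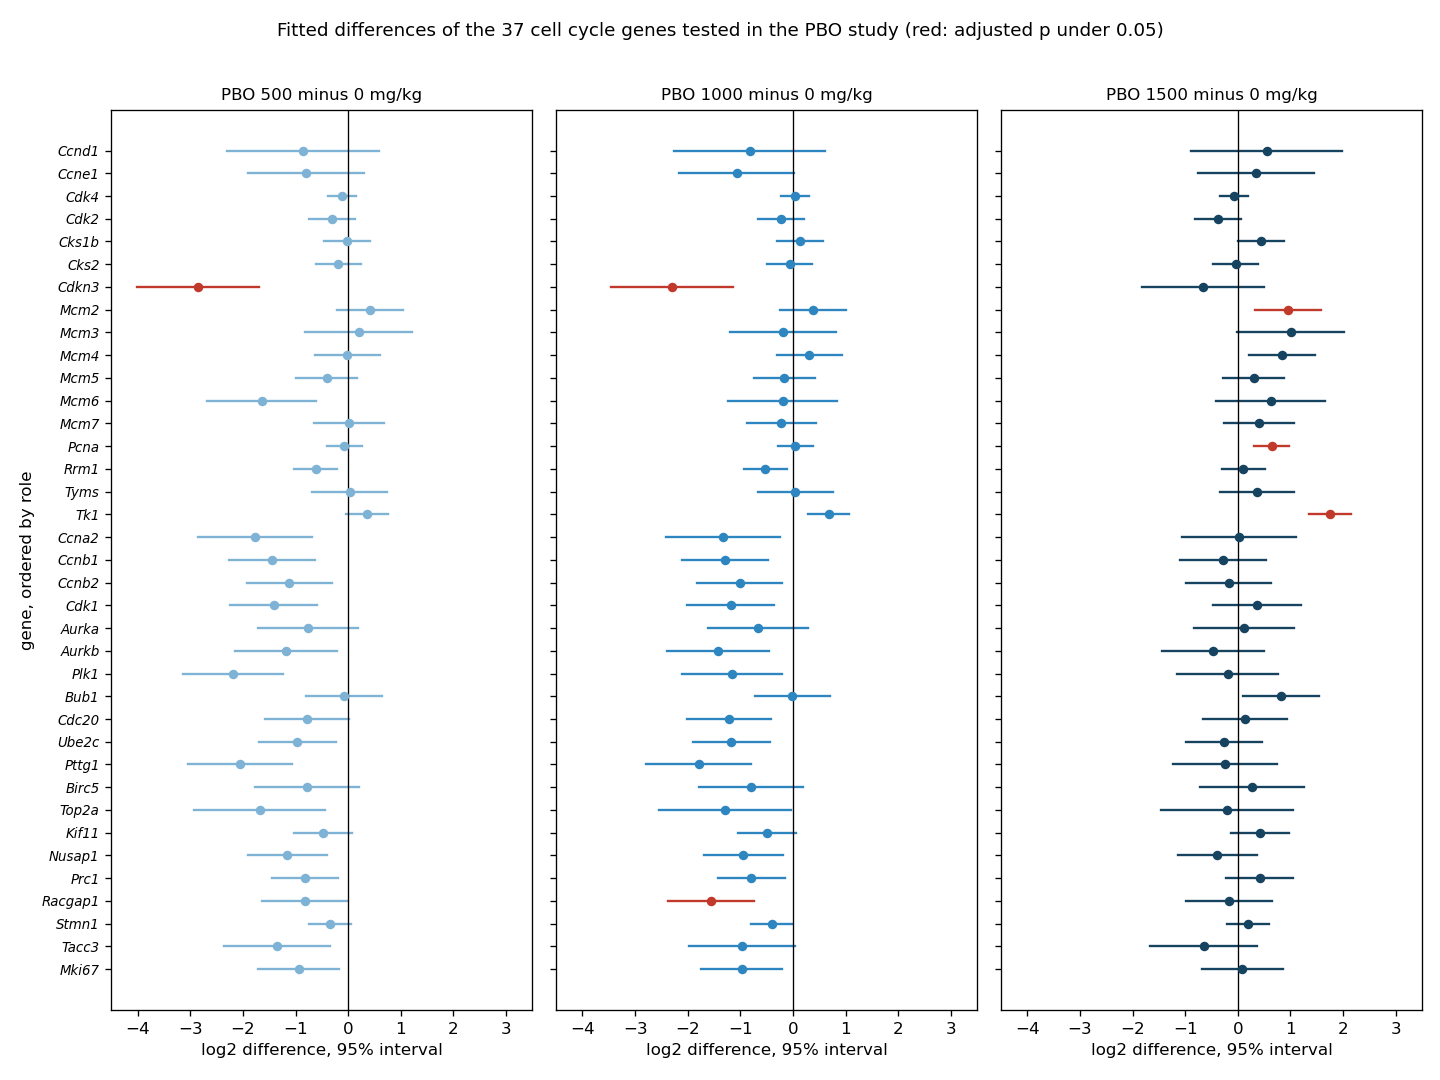
Fitted log2 differences from the control at PBO 500, 1000 and 1500 mg/kg (x axis) for the 37 tested members (y axis, ordered by role), with 95% intervals; red marks an adjusted p under 0.05. Cdkn3 is red at 500 and 1000 mg/kg, Racgap1 at 1000 mg/kg, and Tk1, Pcna and Mcm2 at 1500 mg/kg.

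A contrast of the middle doses (mean of 500 and 1000 mg/kg) with the end doses (mean of 0 and 1500 mg/kg) describes this turn. It was set with the dip already known from these arrays, so it measures the dip and is no independent evidence of it. All 41 members were below 0 in that contrast, against 52.4% of all probe sets, and 39 to 41 were below 0 when any 1 of the 12 arrays was left out. These fits share most of their arrays, and the members vary together within an animal. Neither count is therefore a count of independent readings. The median over the tested members was -0.86, beside -0.01 over all probe sets tested. At an unadjusted p under 0.05, 27 tested members were lower and none higher, against 5.70% and 5.63% of all probe sets. By role the median over tested members was -1.35 for mitotic cyclins and CDK1, -1.0 for mitotic kinases and checkpoint genes (-0.93 over all 12), -0.93 for chromosomes and spindle, -0.35 for replication and -0.17 for G1. Cdkn3 fell by 2.24 in the contrast (SE 0.38, adjusted p = 0.0399; 0.0591% of all probe sets were called lower, 0.156% in all). The Cdkn3 call in this contrast was lost in 9 of the 12 fits that leave out 1 array (adjusted p of 0.0612 to 0.117), which left out any control, PBO 500 replicate 2 or 3, any array at 1000 mg/kg or PBO 1500 replicate 1. Without PBO 1500 replicate 2 the contrast called 7 members lower, and without PBO 1500 replicate 3 it called 3. Next in order by adjusted p over all 12 arrays came Pttg1 with -1.80 (adjusted p = 0.0542) and Cdk1 with -1.48 (adjusted p = 0.0583).

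Between 500 and 1000 mg/kg no member passed the test with limma, where 0.0107% of all probe sets were called. At an unadjusted p under 0.05, 2 members were higher (2.84% of all probe sets) and none lower: Mcm6 by 1.45 (SE 0.48, adjusted p = 0.84) and Plk1 by 1.03 (SE 0.44, adjusted p = 0.912). The Mcm6 arrays at 98.9 to 283 lay above those at 500 mg/kg, which reached 78.0, and those of Plk1 overlapped. Racgap1 was lower by 0.74 (SE 0.38, adjusted p = 0.954). The members' median was 0.10 and 27 of 41 were above 0, against 48.3% of all probe sets, and 4 lay wholly above the 500 mg/kg arrays, against 6.01%.

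Between 1000 and 1500 mg/kg 39 of the 41 members were higher, against 50.6% of all probe sets, and 17 lay wholly above the 1000 mg/kg arrays, against 8.95%, and none wholly below, against 8.43%. At an unadjusted p under 0.05, 21 tested members were higher and none lower, against 8.33% and 9.93% of all probe sets. The median over the tested members was 0.91, beside -0.02 over all probe sets tested, and by role it ran from 0.32 for G1 to 1.18 for mitotic cyclins and CDK1. The 2 members below 0 were Cdk2 (-0.15) and Cdk4 (-0.10). Tk1 was the member that rose, by 1.08 (SE 0.18, adjusted p = 0.0166; 1.20% of all probe sets were called, 0.612% higher). Its adjusted p was 0.0581, 0.0981 and 0.0580 without PBO 1000 replicate 1, 2 or 3. Cdk1 had a difference of 1.54 (SE 0.38, adjusted p = 0.0671), Prc1 1.21 (SE 0.29, adjusted p = 0.0627) and Pcna 0.60 (SE 0.15, adjusted p = 0.071). PBO 1500 replicate 2 was the lowest array of its group for 33 of the 41 members, and without it 11 members rose in this step, with Cdk1 at 1.79 (adjusted p = 0.0326), Ccnb1 at 1.47 (adjusted p = 0.0284) and Cdc20 at 1.76 (adjusted p = 0.0171). That is the highest count of the 12 fits that leave out 1 array, which ranged from 0 to 11. Taking out the lowest array of a group raises its mean, so this fit is no independent evidence of a larger rise.

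**Figure D4:**
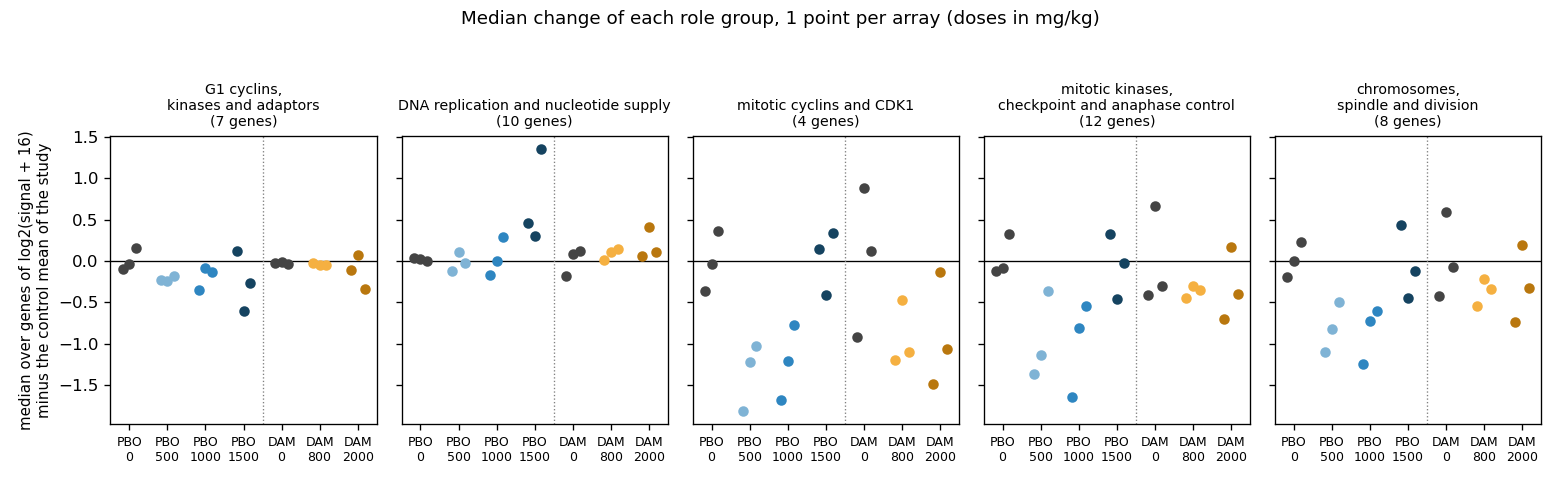
Median over the genes of a role of the difference of log2(signal + 16) from the control mean of the same study (y axis), 1 point per array, by group with doses in mg/kg (x axis), in 5 panels for the 5 roles. The mitotic cyclin panel runs from -1.82 to -0.77 at PBO 500 and 1000 and from -0.41 to 0.33 at PBO 1500, the replication panel reaches 1.35 on PBO 1500 replicate 3, and DAM 0 spans -0.92 to 0.88 in the mitotic cyclin panel.

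Over all 41 members the array medians against the control mean were -1.0, -0.76 and -0.32 at PBO 500, -0.97, -0.65 and -0.41 at PBO 1000 and 0.37, -0.17 and 0.16 at PBO 1500. The middle dose arrays all lay below the 3 controls, which read -0.10, -0.02 and 0.16. At PBO 1500 replicates 1, 2 and 3 had medians of 0.14, -0.41 and 0.33 in the mitotic cyclin group and of 0.46, 0.31 and 1.35 in the replication group, so replicate 3 was highest and replicate 2 lowest in both. Replicate 1 was the lowest array of its group for 21, 23 and 28 of the 41 members at 0, 500 and 1000 mg/kg, and replicate 3 the highest for 22, 23 and 22. At 1500 mg/kg replicate 2 was the lowest for 33. Over the members, same-numbered arrays of different PBO groups had deviations from their group means that correlated at -0.47 to 0.49, above 0 in 13 of 18 pairs.

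Other genes of the cycle were read from lists of 36 genes of G1, S and replication, 38 of G2 and mitosis and 16 inhibitors, of which 30, 31 and 15 were measured. Of the 76 measured, 59 were tested in the PBO study and 60 in the DAM study. At 500 mg/kg 1 of the 59 fell and none rose, where 0.478% of all probe sets were called. Cdca3, which promotes entry into mitosis by targeting WEE1 for destruction, fell by 1.56 (SE 0.29, adjusted p = 0.0349), from signals of 254 to 523 in the controls to 88.0 to 169. At 1000 mg/kg 3 of the 59 fell and 1 rose, where 3.12% of all probe sets were called. Cdc25b, the phosphatase that activates CDK1, fell by 2.12 (SE 0.40, adjusted p = 0.0129), from 103 to 186 down to 9.17 to 45.9, and at 1500 mg/kg its arrays at 38.2 to 62.6 were below every control (difference -1.20, adjusted p = 0.0567). Cdca3 fell by 1.31 (adjusted p = 0.0301) and Ect2, the exchange factor that Racgap1 activates at the furrow, by 1.41 (adjusted p = 0.0487). Dut, which destroys dUTP and supplies dUMP, rose by 0.70 (SE 0.17, adjusted p = 0.0404). In the contrast of middle with end doses Cdca3 fell by 1.44 (SE 0.21, adjusted p = 0.0163), and 27 of the 31 genes of G2 and mitosis were below 0, as were 26 of the 30 genes of G1, S and replication and 9 of the 15 inhibitors, against 52.4% of all probe sets. Between 1000 and 1500 mg/kg Ect2 rose by 1.60 (SE 0.35, adjusted p = 0.0466), and none of the other 58 tested passed.

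Of the 59 tested genes 5 rose and 2 fell at 1500 mg/kg, where 17.3% of all probe sets were called. Dut rose by 1.43 (SE 0.17, adjusted p = 0.000119), from signals of 1243 to 1373 to 2817 to 4564. Cdt1, which loads the MCM helicase, rose by 1.79 (SE 0.47, adjusted p = 0.0202), and Spc24, a kinetochore subunit, by 1.16 (SE 0.27, adjusted p = 0.00994). The other 2 that rose are named with their values known. The stress-induced Gadd45a rose by 1.55 (SE 0.45, adjusted p = 0.0315), and its relative Gadd45b by 3.18 (SE 1.01, adjusted p = 0.0472), with signals spread from 139 to 5497 in that group. Rb1, the retinoblastoma protein that holds back E2F, fell by 2.10 (SE 0.57, adjusted p = 0.0243), and its relative Rbl2 by 0.58 (SE 0.18, adjusted p = 0.0450). Cdkn1a, the inhibitor p21, had means of 530 (SD 241) in the controls and 617 (SD 361), 358 (SD 110) and 553 (SD 341) at the 3 doses (n = 3 each), with differences of 0.14, -0.50 and -0.03, none past the test.

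Markers of other cell types were read beside these genes. All 9 measured macrophage markers were below 0 at 500 and 1000 mg/kg, none past the test. At 1500 mg/kg, where most mitotic genes overlapped the controls, 3 macrophage markers fell (Clec4f, C1qa and C1qb). The summed macrophage signal ranged from 18259 to 20992 in the PBO controls, 13101 to 19296 at 500 mg/kg, 10681 to 16340 at 1000 mg/kg and 3301 to 15149 at 1500 mg/kg. Beta globin (Hbb), a marker of blood, had means of 21253, 15310, 9722 and 6913 over the 4 doses and fell at 1000 mg/kg (by 1.14, adjusted p = 0.0190) and at 1500 mg/kg (by 1.70, adjusted p = 0.000374). The summed signal of the 7 erythroid markers ranged over 25484 to 26520, 18253 to 23385, 10754 to 14536 and 14560 to 22069, and at the top dose the transferrin receptor Tfrc, at a mean of 10494 against 3623 in the controls, made up the larger part of it. Signals of the 8 T and NK cell markers summed to 548 to 790, 454 to 755, 314 to 530 and 187 to 299 over the 4 doses, and those of the 3 B cell markers to 515 to 874, 414 to 520, 284 to 411 and 173 to 284. In the contrast of middle with end doses 8 of the 9 macrophage markers were above 0 with a median of 0.12, 3 of 7 erythroid markers were above 0, and none of the 42 tested markers passed. Endothelial sums ran from 9839 to 10430 in the controls down to 6939 to 8166 at 1500 mg/kg, stellate sums from 8118 to 10195 to 3715 to 7886, and cholangiocyte sums up from 1160 to 1499 to 3546 to 4324. At that dose 5 of the 6 endothelial markers were below 0, and 2 fell. Of the 7 stellate markers 4 were above 0 and 3 below, with a median of 0.10, and 1 rose and 2 fell. Of the 5 cholangiocyte markers 3 were above 0 and 2 below, and 1 rose. The sums, led by bright genes, thus do not stand for every marker of these lists. The lowest marker reading on any of the arrays was 1.36, so no marker was listed at 0. Over all 8 lists 42 of the 52 markers were tested, of which none passed at 500 mg/kg, 1 rose and 2 fell at 1000 mg/kg and 3 rose and 17 fell at 1500 mg/kg, where 0.478%, 3.12% and 17.3% of all probe sets were called. In the DAM study, with 43 tested, 3 rose at 800 mg/kg, and 3 rose and 5 fell at 2000 mg/kg, where 3.79% and 12.3% of all probe sets were called, with macrophage sums of 17865 to 19082 in the controls, 14511 to 24838 at 800 mg/kg and 13446 to 16632 at 2000 mg/kg. The part of these cells in the differences of the cycle genes was not tested.

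In the DAM study the cycle genes were spread more between animals than between doses. Of the 41 members 29 were below 0 at 800 mg/kg and 30 at 2000 mg/kg, against 53.4% and 55.0% of all probe sets, and the medians of the tested members were -0.16 at both doses, beside -0.02 and -0.04 over all probe sets. The count at 2000 mg/kg was 19 of 41 without DAM 0 replicate 2 and 21 of 41 without DAM 2000 replicate 1, and it was 25 with every array scaled to a common median. Replicate 2 was the highest array of its group for 30, 25 and 38 of the 41 members at 0, 800 and 2000 mg/kg, and replicate 1 the lowest for 30, 28 and 27. Over the members, same-numbered DAM arrays had deviations that correlated at 0.04 to 0.66, above 0 in all 9 pairs, against 6 of 18 pairs of differently numbered arrays. The array medians over all members were -0.25, 0.46 and -0.04 in the DAM controls, -0.34, -0.06 and -0.18 at 800 mg/kg and -0.52, 0.19 and -0.28 at 2000 mg/kg, so both treated groups overlapped the controls.

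No member passed the test at 800 mg/kg with limma, where 3.79% of all probe sets were called, and 3 were lower at an unadjusted p under 0.05, against 8.32%. That fit had no covariate. With the replicate number as a block in the fit, Ccna2 and Ccnb1 fell at both DAM doses. At 800 mg/kg 4 members lay wholly below the controls and 1 wholly above, against 9.0% and 7.73% of all probe sets, and at 2000 mg/kg 1 lay below and 3 above, against 12.9% and 10.3%. Cdc20 read 171, 347 and 211 in the DAM controls and 134, 149 and 108 at 800 mg/kg, a difference of -0.78 (SE 0.25, adjusted p = 0.125) without overlap. The other Cdc20 probe sets, all dimmer, gave -0.11, -0.61, 0.00 and 0.25 at 800 mg/kg (limma adjusted p of 0.775 or more without the filter). Ccnb2 read 110.0, 351 and 220.3 against 101, 146 and 96.9, with overlap (difference -0.79, SE 0.32, adjusted p = 0.235). Ccnb1 read 86.4, 353 and 221 against 62.4, 132 and 72.6 at 800 mg/kg and 36.1, 158 and 65.7 at 2000 mg/kg. Its differences of -1.04 (SE 0.48, adjusted p = 0.313) and -1.20 (SE 0.48, adjusted p = 0.13) came with overlap through control replicate 1. Without DAM 0 replicate 1, the lowest control, Ccnb2 fell by 1.19 (adjusted p = 0.0279) at 800 mg/kg and 3 members fell at 2000 mg/kg. Kif11, a spindle motor, read 102, 127 and 103 in the DAM controls, 87.5, 88.7 and 83.7 at 800 mg/kg and 91.7, 95.2 and 88.1 at 2000 mg/kg, below every control at both doses (differences -0.30 and -0.23, adjusted p = 0.461 and 0.456). A second, dimmer Kif11 probe set went the other way, with differences of 0.70 and 0.78 (adjusted p = 0.528 and 0.31 over all probe sets without the filter).

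At 2000 mg/kg 1 member rose, Tk1, where 12.3% of all probe sets were called, 6.22% higher. Tk1 read 356, 458 and 478 in the DAM controls, 581, 437 and 495 at 800 mg/kg and 618, 666 and 570.4 at 2000 mg/kg. The top dose lay wholly above the controls, and the 800 mg/kg group overlapped both. Tk1 rose by 0.51 (SE 0.14, adjusted p = 0.0280), and a second probe set gave 0.35 (adjusted p = 0.346). The Tk1 call was lost without DAM 0 replicate 1 (0.39, adjusted p = 0.102), DAM 2000 replicate 1 (0.51, adjusted p = 0.0747) or DAM 2000 replicate 2 (0.46, adjusted p = 0.105). It was also lost with the replicate number as a block. Pcna read 1750, 2082 and 2104 in the controls, 1981, 2333 and 2088 at 800 mg/kg and 1968, 2749 and 1985 at 2000 mg/kg, with overlap at both doses. Mcm6 read 111, 168 and 196 in the controls, 204, 276 and 206 at 800 mg/kg and 176, 319 and 167 at 2000 mg/kg, and its 800 mg/kg arrays lay above the controls (difference 0.51, SE 0.25, adjusted p = 0.348). Mcm2 read 177, 197 and 201, then 165, 214 and 250.5, then 158, 230.1 and 222 over the 3 groups, with overlap throughout.

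The mitotic genes of the DAM study varied most between the animals of a group. Cdk1 read 122, 426 and 178 in the controls, 99.4, 170.2 and 136 at 800 mg/kg and 101, 337 and 154 at 2000 mg/kg. Cdkn3 read 87.5, 367 and 172, then 78.6, 155 and 94.8, then 64.6, 207 and 138. Top2a read 91.1, 313 and 185, then 129, 156 and 130.0, then 86.9, 188 and 110.2. In each of these 3 genes replicate 2 was the highest array of all 3 groups and the groups overlapped. Mki67 read 74.8, 275 and 119, then 77.4, 109.9 and 79.9, then 39.8, 152 and 85.2, and Racgap1 read 103, 236 and 124, then 69.3, 107 and 116, then 67.2, 177 and 108. The differences of these 5 genes ran from -0.68 to -0.32 at 800 mg/kg and from -0.64 to -0.25 at 2000 mg/kg, with adjusted p of 0.373 or more. Plk1 was dim and untested in the DAM study, at 41.6, 145 and 18.8 in the controls, 8.71, 39.8 and 13.4 at 800 mg/kg and 8.32, 68.1 and 14.2 at 2000 mg/kg.

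Between 800 and 2000 mg/kg DAM no member passed the test with limma (1.11% of all probe sets were called), and 1, Ccnd1, was lower at an unadjusted p under 0.05, against 6.43%. The median was 0.06, with 23 of 41 above 0, against 48.5% of all probe sets. Ccnd1 read 2148, 2215 and 1669 in the DAM controls, 2625, 1927 and 2729 at 800 mg/kg and 1685, 1962 and 1555 at 2000 mg/kg, a step of -0.47 (SE 0.14, adjusted p = 0.182) with overlap. Tk1 had a step of 0.29 (SE 0.14, adjusted p = 0.418). Cdk2 read 286, 159 and 189 in the controls, 221, 213 and 201 at 800 mg/kg and 127, 184 and 173 at 2000 mg/kg, a step of -0.38 (SE 0.20, adjusted p = 0.498) without overlap. A second, dimmer Cdk2 probe set went the other way, with a step of 0.17 (limma adjusted p = 0.907 without the filter). In the wider lists Cdkn1a rose by 0.61 (SE 0.15, adjusted p = 0.0352) at 800 mg/kg, from 947 to 1415 in the controls to 1789 to 1913, and ranged from 1205 to 1660 at 2000 mg/kg, below the 800 mg/kg arrays and overlapping the controls. Gadd45b rose by 1.62 (adjusted p = 0.0158) and 1.52 (adjusted p = 0.00896) at the 2 doses, and Gadd45a by 0.92 (adjusted p = 0.0472) at 2000 mg/kg. E2f2, an activating E2F factor, fell by 0.65 (adjusted p = 0.0470) and 0.59 (adjusted p = 0.0338). At 2000 mg/kg Rb1 fell by 0.74 (adjusted p = 0.00396) and the antiproliferative Btg1 by 0.36 (adjusted p = 0.00706). Lmnb1, lamin B1, rose by 0.47 (adjusted p = 0.0391) at 2000 mg/kg and by 0.69 (adjusted p = 0.0281) from 800 to 2000 mg/kg. Of the 60 tested genes 2 rose and 1 fell at 800 mg/kg, 3 rose and 3 fell at 2000 mg/kg, and 1 rose between them, where 3.79%, 12.3% and 1.11% of all probe sets were called.

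The effects of the highest doses were compared in 1 fit over both studies, as the PBO 1500 effect minus the DAM 2000 effect. The difference carries strain, route, duration, tissue preservation and RNA quality along with the agent, which cannot be told apart. Tk1 was the member past the test, with a difference of 1.24 (SE 0.24, adjusted p = 0.00529; 4.91% of all probe sets were called, 2.14% higher). A second Tk1 probe set gave 0.44 (adjusted p = 0.554). The median over the tested members was 0.39, beside -0.04 over all probe sets tested, with 31 of 41 above 0, against 49.3% of all probe sets, and all 10 replication genes were above 0 with a median of 0.47. Mcm2 differed by 0.88 (SE 0.36, adjusted p = 0.18; 1.23 and 0.0206 without PBO 1500 replicate 2) and Pcna by 0.48 (SE 0.21, adjusted p = 0.212). In the wider lists Dut was the gene past the test, with a difference of 1.23 (SE 0.20, adjusted p = 0.00162).

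For 12 of the 41 members the arrays held more than 1 probe set, 29 in all. The 17 that were not chosen had the sign of the chosen one in 12 cases at PBO 500, 14 at PBO 1000, 14 at PBO 1500 and 16 in the contrast of middle with end doses. That number was 11 at DAM 800, 12 at DAM 2000, 10 between the DAM doses, 11 from PBO 500 to 1000, 16 from PBO 1000 to 1500 and 13 for the difference between the studies. Of these 17, 1 passed the test at PBO 1500 (Tk1, above) and none in the other 9 comparisons.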

How the data were processed

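Liver RNA of 21 rats was hybridised to 1 single-colour array each. The deposited values are linear probe set signals (intensity); the submitters' processing notes name MAS5 as the authors' tool, and its version is not stated there. Their trimmed mean (2% cut at each end) was about 500 on every array, so global shifts are removed, and depth is not a property of arrays: 3 per group limit the precision. The labels' replicate numbers name separate biological samples; no 2 arrays held the same values.

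Signals were taken as log2(signal + 16), 57 control probe sets were left out, and probe sets above the 40th percentile of the mean were fitted with limma 3.58.1 (R 4.3.3; lmFit and eBayes with trend), p-values being adjusted by Benjamini-Hochberg over all tested and called under 0.05. The fits held 12 PBO arrays, 9 DAM arrays, or all 21 for the difference between the studies' effects, with no covariate. The filter lay at a signal of 58.5 (PBO), 43.2 (DAM) and 51.3 (both), and 18625 of 31042 probe sets passed it in each. Of the probe sets 20826 carry 1 gene symbol, 436 several and 9780 none. The fit was tested on simulated data.

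Every array's value is given for members past the threshold in any of the 10 comparisons, the 3 lowest adjusted p-values where none passed, and a set chosen by role (Ccnd1, Cdkn3, Mcm6, Pcna, Cdk1, Ccnb1, Top2a and Mki67; Rrm2 was also in the set and has no value); of the wider lists, up to 3 called genes per direction and Cdkn1a. Further members are named with their values known. The members, lists, markers and contrasts were chosen with earlier results of these data known. Alternatives were the pseudocount, the filter, quantile and median scaling, the replicate number as a block, array weights, the compared groups alone, the choice of probe set and leaving out each array. Leaving out arrays in the counts above and below 0 was added after the data were seen. Promoters were searched with Python 3.11.15 and figures drawn with matplotlib 3.10.9.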

Additional observations from a re-analysis of the deposited data

Results flagged for a closer look

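The Tk1 difference between the effect of PBO at 1500 mg/kg and the effect of DAM at 2000 mg/kg was 1.24 on the log2(signal + 16) scale (SE 0.24, adjusted p = 0.00529 with limma), by a test of the difference itself in 1 fit over both studies. Tk1 was higher than its control mean on all 3 arrays of either dose group. Strain, route, duration, preservation and RNA quality differ between the studies along with the agent and cannot be told apart.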

How the results depend on the processing

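The number of members called is small and moved with the settings. At PBO 500 (1 called) it was 0 with a pseudocount of 1 and with the filter at the 60th percentile, 2 with median scaling, 4 with array weights and 3 with the compared groups alone. At PBO 1000 (2 called) it was 0 without the filter, 1 with a pseudocount of 1, the 60th percentile filter, quantile normalization or the probe set chosen on the fit's own arrays, 7 with array weights and 10 with the compared groups alone. Between PBO 1000 and 1500 (1 called) it was 2 with a pseudocount of 64 and with array weights and 0 with the compared groups alone. For the middle against the end doses (1 called) it was 0 with a pseudocount of 1, without the filter and with the 60th percentile filter, 3 with a pseudocount of 64 and with median scaling, and 5 with array weights. The median change of the members was -0.56 at PBO 500 with a pseudocount of 64, and with the 60th percentile filter, which tests fewer and brighter members, -0.35 at PBO 500, -0.23 at PBO 1000 and -0.44 for the middle against the end doses. Of the 99 other settings of the called counts 74 stayed within 1.5 times, as did 95 of the 99 medians within their spread, and no direction was reversed; the causes were not tested. The compared groups alone do not apply to the middle against the end doses, which use all 4 groups.

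With the replicate number as a block the counts were 1 at PBO 1000 and 2 for the middle against the end doses, at DAM 800 and at DAM 2000. Over all probe sets tested, same-numbered arrays did not deviate together (correlations of -0.07 to 0.03 in the PBO study and -0.06 to 0.10 in the DAM study), and 5 of 12 PBO and 4 of 9 DAM arrays correlated best with their own number, and the labels tie the numbers to nothing shared, so they were not taken to pair the arrays. Over the 41 members alone the same correlations were -0.47 to 0.49 and 0.04 to 0.66. Under the block Cdkn3 had adjusted p of 0.0820, 0.0697 and 0.0855 at PBO 500, PBO 1000 and in the contrast of doses, Racgap1 0.0701 at PBO 1000 and Tk1 0.0525 at DAM 2000, while Ccna2 and Ccnb1 fell at both DAM doses.

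Leaving out 1 array at a time, the count called ranged over 0 to 3 (PBO 500), 0 to 6 (PBO 1000), 2 to 5 (PBO 1500), 0 to 0 (PBO 1000 against 500), 0 to 11 (PBO 1500 against 1000), 0 to 7 (middle against end), 0 to 1 (DAM 800), 0 to 3 (DAM 2000), 0 to 0 (DAM 2000 against 800) and 1 to 2 (difference between studies). In the same order the median ranged over -0.97 to -0.66, -0.87 to -0.61, -0.00 to 0.29, -0.02 to 0.19, 0.60 to 1.11, -1.06 to -0.74, -0.30 to -0.07, -0.31 to 0.01, -0.12 to 0.20 and 0.16 to 0.62. Tk1 and Pcna at PBO 1500 kept their calls in every setting run. The Mcm2 call there was lost without the filter (adjusted p = 0.0631) and with the compared groups alone (0.150), and Tk1 between PBO 1000 and 1500 with the compared groups alone (0.148). Scaling to a common median raised all changes by 0.11 at PBO 1000, 0.12 at PBO 1500 and 0.11 at DAM 2000, and the share of all called probe sets that were higher went from 73.0% to 84.1% (PBO 500), 60.4% to 80.5% (PBO 1000), 46.6% to 63.0% (PBO 1500), 57.2% to 73.3% (DAM 800) and 50.4% to 73.9% (DAM 2000). Members below the filter have little signal over background, which limits their values.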
